A study of Mus musculus with 12 samples.

Results

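The genes described here store and make fat in adipocytes: 36 genes that coat the lipid droplet, bring fatty acids and glucose into the cell, build triglyceride, release it again, make fatty acids from glucose, or switch these genes on. They were taken from a list of symbols matched to the Ensembl mouse identifiers of 54232 genes, and a member was to be dropped if its counts summed over all libraries came to under 15. None was dropped, and all 36 were among the 18618 genes that entered the tests. The RNA came from 12 dorsal skin wounds of male mice aged 12.5 weeks per the labels, on the C57BLKS/J background and homozygous for the db allele (db/db), which disables the leptin receptor. Every group carries it, and it makes mice obese and diabetic, so no group shows the tissue of a lean animal. Each wound was a full-thickness punch of 6 mm and was sampled on day 10. The TD group (5 libraries) had a Tegaderm film dressing only, the strain group (4 libraries) a patch that puts roughly 30% strain on the wound, and the no-strain group (3 libraries) the patch with no strain applied. Whether wounds shared a mouse is not stated in the labels, so the p-values measure the spread between these samples, which may be technical in part. The comparison of each patch group with TD asks what wearing a patch went with. In what follows, under the film means TD, and with and without strain mean the 2 patch groups. The comparison of strain with no strain asks about the imposed strain itself.

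White adipocytes keep triglyceride in a single large droplet, whose surface is held by perilipins and by CIDE proteins that let droplets fuse. Fatty acids reach the cell through lipoprotein lipase and the CD36 transporter, or are made there from citrate by ATP-citrate lyase, acetyl-CoA carboxylase and fatty acid synthase. Lipases remove the fatty acids again in turn, and the nuclear receptor PPARG with C/EBPα keeps the whole set of genes on. In skin these cells form a layer beneath the dermis. Sebaceous glands also make lipid and use many of the same enzymes, and skeletal muscle, which lies below the fat layer in mouse skin, uses several of the transporters.

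Gene counts summed to between 20354677 and 25059371 per library. Adipocyte RNA was present in every wound: Adipoq, which encodes adiponectin and is not a member, had a mean of 80.9 ± 32.4 CPM under the film (SD, n = 5), 28.6 ± 9.10 CPM with strain (SD, n = 4) and 12.8 ± 9.15 CPM without (SD, n = 3). CPM is the count of a gene relative to the library total, with the TMM scaling of edgeR. The skeletal muscle markers of a list of 18 genes summed to 7348 to 18049 CPM in TD, 3461 to 6548 CPM in the strain group and 5053 to 10720.5 CPM in the no-strain group. All strain libraries lay below all TD libraries in this sum, and the no-strain libraries overlapped both. The numbers in the sample titles run from 1 to 6 in TD and from 7 to 15 under the patches. If they reflect an order of handling, order and dressing cannot be told apart. The titles also carry a letter, L or R, whose meaning the labels do not give. It is R in 4 of 5 TD libraries, L in 3 of 4 strain libraries and L in 2 of 3 no-strain libraries, so letter and dressing are partly confounded. If L and R are wounds of 1 mouse, libraries may not be independent, although 0 title numbers occur with both letters.

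The fat genes were lower under both patches than under the film alone. For strain against TD, 15 of 36 members (41.7%) fell and 0 rose, where a call means an adjusted p under 0.05 by edgeR's quasi-likelihood test. Of all genes tested, 6.41% fell, 6.2% rose and 12.6% did either. For no strain against TD, 25 of 36 (69.4%) fell and 0 rose, while of all genes 8.4% fell, 9.35% rose and 17.8% did either. The median log2 fold change of the members was -0.73 for strain and -1.06 for no strain, and that of all genes tested was 0.02 and 0.01. Both comparisons use the same 5 TD libraries. Calls fell on 14 members in both comparisons, on Cd36 for strain alone, on 11 for no strain alone and on 10 in neither. Libraries did not overlap with TD, on the lower side, for 10 members under strain (27.8%, against 7.15% of all genes) and for 22 under no strain (61.1%, against 12.5%). On the higher side there were 0 members in either comparison, against 7.47% and 14.3% of all genes. In RNA from whole wounds, fewer adipocytes and less of each RNA per adipocyte cannot be told apart.

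**Figure D1:**
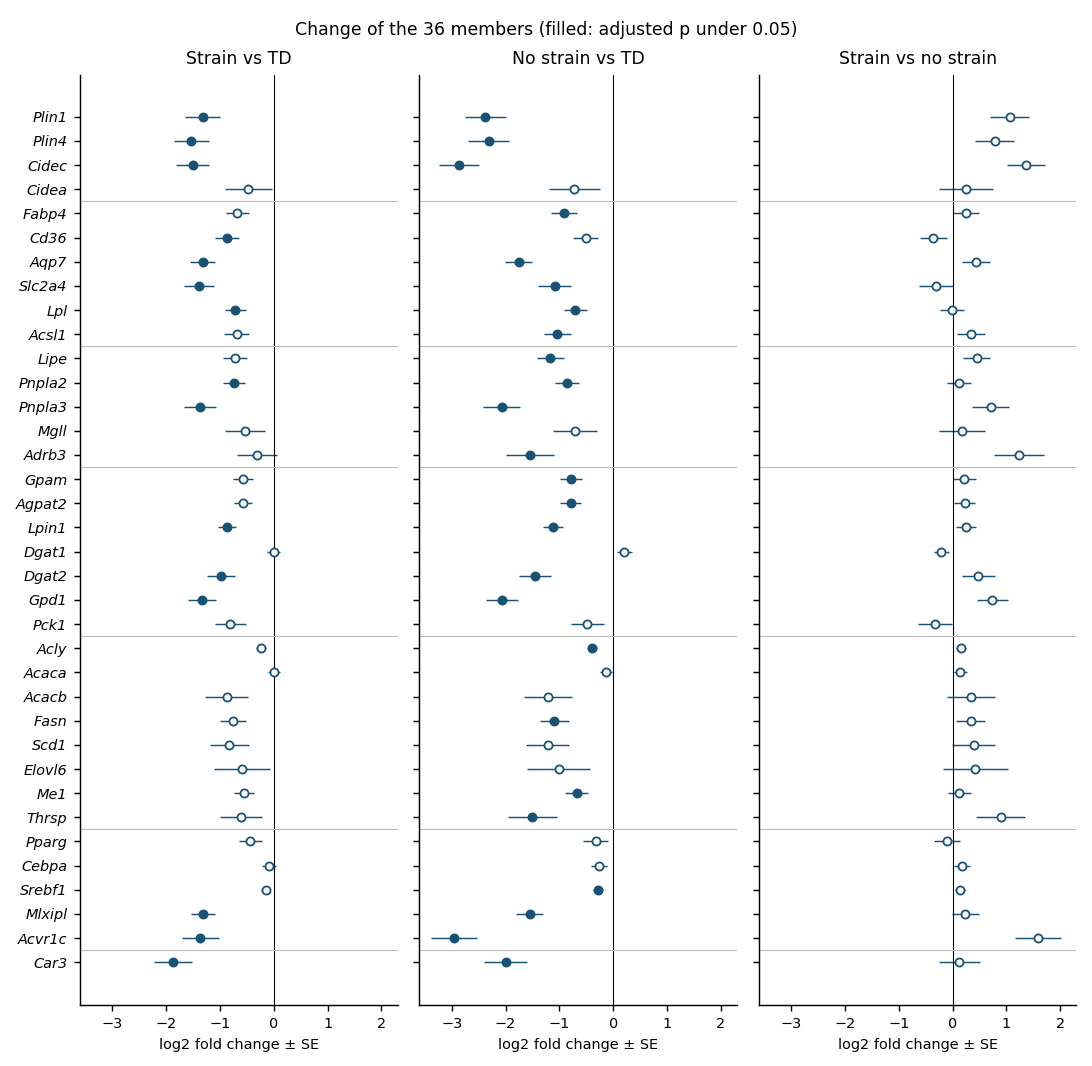
Log2 fold change (x axis, with its standard error) of each of the 36 members (y axis, grouped by role between grey lines) in the 3 comparisons; filled points have an edgeR adjusted p under 0.05. Filled points are 15 in the left panel and 25 in the middle one, all to the left of 0, and 0 in the panel of strain against no strain.

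The number of calls moved with single libraries, with the letter of the sample title and with the tissue lists added to the model. Leaving out a single library gave 8 strain calls (without strain replicate 2), 9 (without TD replicate 3 and likewise without TD replicate 4) or 25 (without strain replicate 3). The no-strain calls came to 15 without no-strain replicate 1 and to 12 without no-strain replicate 3. When the title letter was added to the model, 8 members and 798 genes of all those tested passed in the strain comparison, and 17 members and 2145 genes in the no-strain comparison. The 7 strain calls lost were those of Plin1, Cd36, Lpl, Pnpla2, Pnpla3, Dgat2 and Acvr1c (edgeR adjusted p 0.0574 to 0.113). The 8 no-strain calls lost were those of Slc2a4, Lpl, Pnpla2, Adrb3, Gpam, Me1, Thrsp and Srebf1 (edgeR adjusted p 0.0543 to 0.135). Among the genes outside the set named further on, the strain calls of Adipoq, Agpat4, Pgd, Usf1, Scd3, Acadm, S100a9, S100a8, Cdh5 and Acta1 were lost as well, as were the no-strain calls of Gk and Zfp423. The part of the letter in these results was not tested. When the muscle list's mean was added to the model, 0 members and 1 gene of all those tested passed in the strain comparison. In the no-strain comparison, 6 members and 815 genes passed, the members being Cidec, Aqp7, Lpin1, Gpd1, Mlxipl and Acvr1c. The muscle mean was 8.03 to 9.34 log2 CPM in TD, 7.01 to 7.845 with strain and 7.565 to 8.43 without. Strain libraries did not overlap TD in it, so muscle RNA and dressing cannot be told apart in the strain comparison. When the mean of 9 adipocyte markers outside the set was added instead, 0 members passed in either comparison, while 110 and 45 genes of all those tested did. Their mean was 3.955 to 5.47 log2 CPM in TD, 3.47 to 4.06 with strain and 2.35 to 3.26 without. No-strain libraries did not overlap TD, and only TD replicate 5 lay within the strain range. This covariate and dressing are therefore largely confounded. The members called in each of the 12 fits that left out a library were Plin4, Cidec, Aqp7, Slc2a4, Lpin1, Gpd1, Mlxipl and Car3 for strain. For no strain they were Plin1, Plin4, Cidec, Aqp7, Pnpla3, Lpin1, Dgat2, Gpd1, Mlxipl, Acvr1c and Car3. In the other direction, DESeq2 added strain calls of Fabp4, Acsl1, Lipe, Gpam, Agpat2, Pck1, Fasn and Me1. It added no-strain calls of Acacb and Scd1.

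Promoter sequences are shown for 5 of the members that fell, to set side by side the stretches around their start sites: the droplet proteins Plin1 and Cidec, the glycerol channel Aqp7, the synthase Fasn and the transcription factor Mlxipl. The windows lie around a RefSeq start on build GRCm38.p6, which matches the GRCm38 build of the submitters' processing notes, and 26 of 36 members have an entry. They lie at chr7:79732727-79733026 (minus strand), chr6:113434715-113435014 (minus strand, 1 of 2 Cidec starts), chr4:41047913-41048212 (minus strand, 1 of 2 Aqp7 starts), chr11:120824498-120824797 (minus strand) and chr5:135089640-135089939 (plus strand, 1 of 2 Mlxipl starts). Each is written 5′ to 3′ in the direction of the gene, and capitals mark the motifs found on either strand. Of 2 starts of a gene, the window with more matches is shown.
Plin1: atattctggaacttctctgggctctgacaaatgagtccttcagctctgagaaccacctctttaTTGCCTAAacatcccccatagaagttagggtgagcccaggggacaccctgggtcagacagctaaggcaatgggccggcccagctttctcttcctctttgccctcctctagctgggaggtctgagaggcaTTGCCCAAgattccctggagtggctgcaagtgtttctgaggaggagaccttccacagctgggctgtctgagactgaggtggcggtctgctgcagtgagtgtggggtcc
Cidec: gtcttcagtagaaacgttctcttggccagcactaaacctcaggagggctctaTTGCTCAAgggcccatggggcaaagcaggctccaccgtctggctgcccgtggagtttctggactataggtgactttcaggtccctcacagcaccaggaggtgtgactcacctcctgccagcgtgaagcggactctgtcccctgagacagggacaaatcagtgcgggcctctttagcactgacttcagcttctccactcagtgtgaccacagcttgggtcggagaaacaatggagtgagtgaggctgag
Aqp7: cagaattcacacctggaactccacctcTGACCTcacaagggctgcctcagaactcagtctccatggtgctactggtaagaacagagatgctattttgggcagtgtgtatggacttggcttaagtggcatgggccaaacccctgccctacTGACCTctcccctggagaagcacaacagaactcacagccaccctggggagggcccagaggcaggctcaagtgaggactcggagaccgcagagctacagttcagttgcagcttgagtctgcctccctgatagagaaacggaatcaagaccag
Fasn: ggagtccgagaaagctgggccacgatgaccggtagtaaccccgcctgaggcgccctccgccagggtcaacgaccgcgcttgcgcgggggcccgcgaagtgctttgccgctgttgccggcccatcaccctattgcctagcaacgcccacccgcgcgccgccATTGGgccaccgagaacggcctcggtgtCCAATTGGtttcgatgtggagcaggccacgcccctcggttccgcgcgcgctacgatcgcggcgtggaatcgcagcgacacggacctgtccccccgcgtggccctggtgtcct
Mlxipl: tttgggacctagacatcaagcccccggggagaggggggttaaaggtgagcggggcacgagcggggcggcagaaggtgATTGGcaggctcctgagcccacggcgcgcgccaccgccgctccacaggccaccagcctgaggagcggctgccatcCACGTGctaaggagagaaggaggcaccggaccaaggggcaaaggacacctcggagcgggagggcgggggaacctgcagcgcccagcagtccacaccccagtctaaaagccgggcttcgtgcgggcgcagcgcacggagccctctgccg
Both strands were searched for TTGCNNAA (a C/EBP element), AGGTCA (a nuclear receptor element), CCAAT (the CCAAT box), CACGTG (an E-box) and CACCCCAC (the core of a sterol element). On the other strand AGGTCA reads TGACCT and CCAAT reads ATTGG. None of these patterns contains another. The C/EBP pattern was at positions -187 and -58 from the start in Plin1 and at -198 in Cidec. The nuclear receptor element was at -223 and -101 in Aqp7, the CCAAT box at -90, -62 and -59 in Fasn (the last 2 overlap) and at -173 in Mlxipl, and the E-box at -98 in Mlxipl. Of the 39 windows of members, 10.3% held the C/EBP pattern, 25.6% the nuclear receptor element, 38.5% the CCAAT box, 7.69% the E-box and 5.13% the sterol core. Of all 32851 windows of this length the shares were 10.8%, 16.3%, 37.4%, 7.15% and 2.87% in the same order. A match is a run of letters and not a measured binding site.

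Among the droplet coat genes, Cidec, Plin4 and Plin1 fell under both patches, and Cidea did not pass in either comparison. Cidec encodes the protein that fuses small droplets into the large droplet of white fat. Its level was 242, 174, 262, 234 and 104 CPM in TD libraries 1 to 5, 86.1, 56.6, 98.1 and 45.5 CPM in strain libraries 1 to 4, and 24.5, 37.7 and 21.4 CPM in no-strain libraries 1 to 3. Every patch library lay below every TD library, and the no-strain libraries also lay below all strain libraries: the log2 fold change from TD was -1.50 (SE 0.308, edgeR adjusted p = 0.0139) with strain and -2.87 (SE 0.37, edgeR adjusted p = 0.0022) without. In fold terms Cidec was 2.84-fold lower under strain and 7.29-fold lower under no strain.

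Plin1 encodes perilipin 1, which guards the droplet surface and releases it to lipases on hormonal signals. Its level was 111, 89.1, 158, 109.5 and 47.7 CPM in TD libraries 1 to 5, 51.1, 33.1, 53.3 and 27.1 CPM in strain libraries 1 to 4, and 18.3, 25.8 and 15.2 CPM in no-strain libraries 1 to 3. TD replicate 5, the lowest TD library, overlapped the strain group, and the no-strain libraries lay below all others: the log2 fold change from TD was -1.32 (SE 0.321, edgeR adjusted p = 0.0249) with strain and -2.38 (SE 0.379, edgeR adjusted p = 0.00377) without. The strain call of Plin1 was lost without TD replicate 3 or 4 or strain replicate 2 or 4 (edgeR adjusted p up to 0.0779), and also with the title letter in the model or no filter on low counts. Plin4, a perilipin of nascent droplets, stood at 229.8, 166, 294, 192 and 101 CPM in TD libraries 1 to 5, 80.0, 56.1, 91.3 and 43.8 CPM in strain libraries 1 to 4, and 43.8, 48.7 and 25.7 CPM in no-strain libraries 1 to 3. Its libraries did not overlap between TD and either patch: the log2 fold change from TD was -1.53 (SE 0.321, edgeR adjusted p = 0.0147) with strain and -2.32 (SE 0.373, edgeR adjusted p = 0.0039) without. Cidea, a relative of Cidec that is also made by thermogenic fat and by sebaceous glands, had a mean of 36.1 ± 9.56 CPM under the film (SD, n = 5), 26.0 ± 18.9 CPM with strain (SD, n = 4) and 21.9 ± 10.9 CPM without (SD, n = 3) (edgeR adjusted p = 0.5 and 0.323).

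**Figure D2:**
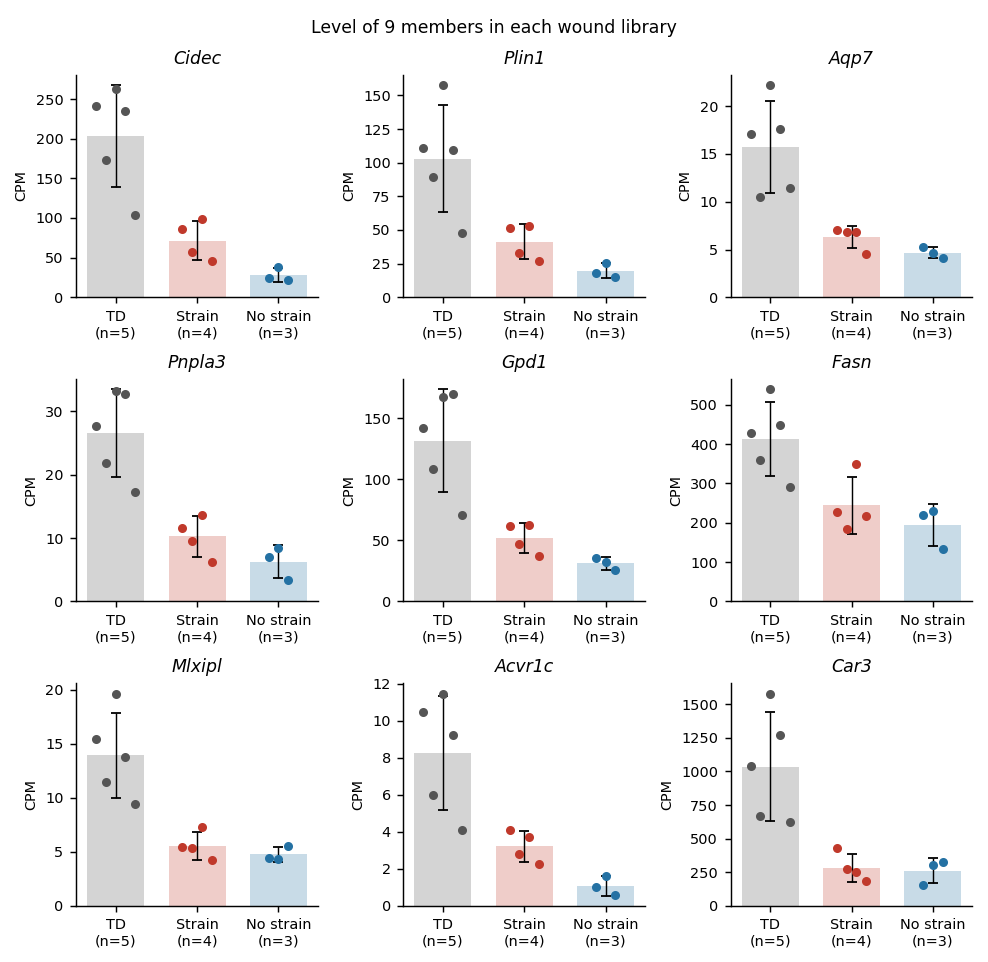
Level in CPM (y axis, from 0) of 9 members in 5 TD, 4 strain and 3 no-strain libraries. Points are libraries, bars are means and error bars are SD. Cidec and Plin1 are lowest in the no-strain libraries, while Car3 and Mlxipl have similar means under both patches.

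Of the 6 genes for uptake and transport, 4 fell under strain (Aqp7, Slc2a4, Lpl and Cd36) and 5 under no strain (Aqp7, Slc2a4, Lpl, Acsl1 and Fabp4). Aqp7 encodes the channel through which adipocytes release glycerol. It stood at 17.1, 10.5, 22.2, 17.6 and 11.4 CPM in TD libraries 1 to 5, 7.01, 6.80, 6.81 and 4.55 CPM in strain libraries 1 to 4, and 5.27, 4.59 and 4.14 CPM in no-strain libraries 1 to 3. No patch library reached the TD range: the log2 fold change from TD was -1.32 (SE 0.224, edgeR adjusted p = 0.00758) with strain and -1.76 (SE 0.255, edgeR adjusted p = 0.0027) without. Slc2a4 encodes GLUT4, the insulin-responsive glucose transporter of fat and muscle, and had 33.9, 26.9, 53.0, 30.6 and 17.1 CPM in TD libraries 1 to 5, 13.8, 9.90, 14.6 and 10.9 CPM in strain libraries 1 to 4, and 12.3, 13.6 and 19.6 CPM in no-strain libraries 1 to 3. Strain libraries lay below all TD libraries, whereas no-strain replicate 3, the no-strain library with the most muscle marker RNA by list mean, overlapped TD: the log2 fold change from TD was -1.39 (SE 0.284, edgeR adjusted p = 0.0138) with strain and -1.09 (SE 0.311, edgeR adjusted p = 0.034) without. The no-strain call of Slc2a4 was lost without TD replicate 1, 3 or 4 or no-strain replicate 1 or 2 (edgeR adjusted p up to 0.118), and also with the title letter in the model, limma-voom, no filter on low counts or only the 2 groups in the fit.

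Acsl1, which activates fatty acids by joining them to coenzyme A, stood at 325, 252, 391, 333 and 180.0 CPM in TD libraries 1 to 5, 212, 186, 214 and 121 CPM in strain libraries 1 to 4, and 164, 147 and 121 CPM in no-strain libraries 1 to 3. Only TD replicate 5 among the TD libraries lay within the strain range, and none lay within the no-strain range: the log2 fold change from TD was -0.69 (SE 0.227, edgeR adjusted p = 0.0669) with strain and -1.04 (SE 0.253, edgeR adjusted p = 0.019) without. The no-strain call was lost without no-strain replicate 3 (edgeR adjusted p up to 0.0795), and also with no filter on low counts, and a strain call was made without TD replicate 5 (edgeR adjusted p down to 0.0259). Lpl, which encodes lipoprotein lipase, had similar log2 fold changes under both patches, -0.71 (SE 0.196, edgeR adjusted p = 0.0359) and -0.71 (SE 0.216, edgeR adjusted p = 0.0428). The strain call of Lpl was lost without TD replicate 3 or 4 or strain replicate 1, 2 or 4 (edgeR adjusted p up to 0.109), and also with the title letter in the model, no filter on low counts or only the 2 groups in the fit. The no-strain call of Lpl was lost without TD replicate 2, 3 or 4 or strain replicate 4 or no-strain replicate 1, 2 or 3 (edgeR adjusted p up to 0.13), and also with the title letter in the model or no filter on low counts. Fabp4, the fatty acid carrier of adipocytes, had log2 fold changes of -0.68 (SE 0.214, edgeR adjusted p = 0.0595) and -0.92 (SE 0.238, edgeR adjusted p = 0.0241). The no-strain call of Fabp4 was lost without no-strain replicate 2 or 3 (edgeR adjusted p up to 0.0958), and also with no filter on low counts, and a strain call was made without TD replicate 5 or strain replicate 3 or no-strain replicate 1 (edgeR adjusted p down to 0.0391). Cd36, a fatty acid transporter that macrophages and capillaries also carry, was the member with a call under strain and none under no strain, -0.87 (SE 0.219, edgeR adjusted p = 0.0277) and -0.52 (SE 0.238, edgeR adjusted p = 0.155). In the direct test of strain against no strain it did not pass (log2 fold change -0.36, edgeR adjusted p = 0.895), and its strain call was lost without TD replicate 2, 3 or 4 or strain replicate 1 or 2 (edgeR adjusted p up to 0.0807), and also with the title letter in the model or no filter on low counts.

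The lipolysis genes encode lipases and the receptor that sets them going. Of 5, 2 fell under strain (Pnpla2 and Pnpla3) and 4 under no strain (Pnpla2, Pnpla3, Lipe and Adrb3). Pnpla2 encodes ATGL, which removes the first fatty acid from triglyceride, and had 217, 178, 269, 199 and 117 CPM in TD libraries 1 to 5, 113, 114, 146 and 96.3 CPM in strain libraries 1 to 4, and 105, 104 and 114 CPM in no-strain libraries 1 to 3. The no-strain libraries lay below all TD libraries, and TD replicate 5 was within the strain range: the log2 fold change from TD was -0.74 (SE 0.2, edgeR adjusted p = 0.0346) with strain and -0.86 (SE 0.221, edgeR adjusted p = 0.0233) without. Its strain call was lost without TD replicate 1, 2, 3 or 4 or strain replicate 1, 2 or 4 (edgeR adjusted p up to 0.0933), and also with the title letter in the model, limma-voom, no filter on low counts or only the 2 groups in the fit. Its no-strain call was lost without no-strain replicate 1, 2 or 3 (edgeR adjusted p up to 0.0744), and also with the title letter in the model or no filter on low counts.

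Lipe encodes hormone-sensitive lipase, the next in line. It stood at 82.9, 70.2, 105, 79.1 and 43.8 CPM in TD libraries 1 to 5, 52.1, 42.3, 55.0 and 35.9 CPM in strain libraries 1 to 4, and 39.3, 34.4 and 28.0 CPM in no-strain libraries 1 to 3. No-strain libraries lay below all TD libraries, and TD replicate 5 overlapped the strain group: the log2 fold change from TD was -0.72 (SE 0.219, edgeR adjusted p = 0.0537) with strain and -1.17 (SE 0.247, edgeR adjusted p = 0.0107) without. The no-strain call of Lipe was lost without no-strain replicate 3 (edgeR adjusted p up to 0.05), a value that rounds to the threshold, and a strain call was made without TD replicate 5 or strain replicate 3 (edgeR adjusted p down to 0.0128). An antisense gene shares 15.6% of the exon length of Lipe, and reads of the pair cannot be separated in libraries made without strand marking. Pnpla3, a close relative of ATGL that is induced by feeding, had 27.7, 21.8, 33.2, 32.7 and 17.3 CPM in TD libraries 1 to 5, 11.6, 9.54, 13.7 and 6.23 CPM in strain libraries 1 to 4, and 6.98, 8.49 and 3.39 CPM in no-strain libraries 1 to 3. No patch library reached the TD range: the log2 fold change from TD was -1.37 (SE 0.299, edgeR adjusted p = 0.0167) with strain and -2.08 (SE 0.347, edgeR adjusted p = 0.00438) without. The strain call of Pnpla3 was lost without strain replicate 2 (edgeR adjusted p up to 0.0531), and also with the title letter in the model. Mgll, which encodes the last lipase of the chain, did not pass (-0.53 and -0.70, edgeR adjusted p = 0.373 and 0.259). Adrb3, the beta-3 adrenergic receptor that triggers lipolysis, had a mean of 2.43 ± 0.944 CPM under the film (SD, n = 5), 1.95 ± 1.03 CPM with strain (SD, n = 4) and 0.828 ± 0.279 CPM without (SD, n = 3). It fell without strain, with a log2 fold change of -1.54 (SE 0.449, edgeR adjusted p = 0.0361), and was -0.30 with strain (edgeR adjusted p = 0.629). That no-strain call was lost without TD replicate 1, 3 or 4 or no-strain replicate 1, 2 or 3 (edgeR adjusted p up to 0.131), and also with the title letter in the model or limma-voom, and 24.9% of the exon length of Adrb3 is shared with an antisense gene.

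In triglyceride synthesis, 3 of 7 genes fell under strain (Gpd1, Lpin1 and Dgat2) and 5 under no strain, which added Gpam and Agpat2. Gpd1 makes the glycerol 3-phosphate backbone from a glycolysis intermediate. It stood at 142, 108, 167, 169.8 and 71.2 CPM in TD libraries 1 to 5, 61.8, 47.2, 62.6 and 36.9 CPM in strain libraries 1 to 4, and 35.9, 32.5 and 25.5 CPM in no-strain libraries 1 to 3. The 3 groups did not overlap, with TD highest and no strain lowest: the log2 fold change from TD was -1.34 (SE 0.255, edgeR adjusted p = 0.0112) with strain and -2.07 (SE 0.295, edgeR adjusted p = 0.00262) without. An antisense gene shares 13% of its exon length. Lpin1 encodes lipin 1, which makes diacylglycerol, and had 44.8, 45.6, 63.0, 55.5 and 35.99 CPM in TD libraries 1 to 5, 31.4, 23.2, 31.1 and 21.5 CPM in strain libraries 1 to 4, and 22.1, 23.4 and 21.9 CPM in no-strain libraries 1 to 3. Both patch groups lay below the whole TD range: the log2 fold change from TD was -0.87 (SE 0.164, edgeR adjusted p = 0.0107) with strain and -1.12 (SE 0.184, edgeR adjusted p = 0.00399) without.

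Dgat2 and Dgat1 encode the enzymes that add the last fatty acid, and their values are given side by side. Dgat2 had 295, 221, 381, 288 and 164 CPM in TD libraries 1 to 5, 177, 122, 161 and 88.9 CPM in strain libraries 1 to 4, and 115, 108 and 71.1 CPM in no-strain libraries 1 to 3. Strain replicate 1 overlapped the lowest TD library, and no-strain libraries lay below all of TD: the log2 fold change from TD was -0.98 (SE 0.265, edgeR adjusted p = 0.0355) with strain and -1.46 (SE 0.3, edgeR adjusted p = 0.00977) without. The strain call of Dgat2 was lost without TD replicate 1, 3 or 4 or strain replicate 2 or 4 (edgeR adjusted p up to 0.0998), and also with the title letter in the model, limma-voom or no filter on low counts. Dgat1 had a mean of 68.9 ± 12.1 CPM under the film (SD, n = 5), 68.7 ± 7.38 CPM with strain (SD, n = 4) and 79.6 ± 7.88 CPM without (SD, n = 3) and did not pass (edgeR adjusted p = 0.986 and 0.317). Gpam and Agpat2, the acyltransferases for the first and the next fatty acid, fell without strain, with log2 fold changes of -0.79 (SE 0.205, edgeR adjusted p = 0.0244) and -0.79 (SE 0.191, edgeR adjusted p = 0.0183). The no-strain call of Gpam was lost without no-strain replicate 1 or 3 (edgeR adjusted p up to 0.097), and also with the title letter in the model or no filter on low counts. That of Agpat2 was lost without no-strain replicate 1 or 3 (edgeR adjusted p up to 0.0698). With strain neither passed (-0.57 and -0.57, edgeR adjusted p = 0.0632 and 0.0517). A strain call of Gpam was made without TD replicate 5 or strain replicate 3 or no-strain replicate 2 or 3 (edgeR adjusted p down to 0.0278), and one of Agpat2 was made without TD replicate 5 or strain replicate 3 (edgeR adjusted p down to 0.0155). DESeq2 also made both calls. So did only the 2 groups in the fit for Gpam, and a filter at a mean of 5 CPM for Agpat2. Pck1, which feeds glycerol synthesis in fat, was -0.81 and -0.48 and did not pass (edgeR adjusted p = 0.0834 and 0.299), and a strain call of it was made without TD replicate 5 (edgeR adjusted p down to 0.0196).

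Of the 8 genes of fatty acid synthesis from glucose, 0 passed the edgeR test for strain, where 5 had an unadjusted p under 0.05 and DESeq2 called 2, and 4 fell for no strain (Fasn, Acly, Me1 and Thrsp). Fasn encodes fatty acid synthase. It stood at 428, 359.7, 539, 449.6 and 292 CPM in TD libraries 1 to 5, 226, 184, 350.2 and 218 CPM in strain libraries 1 to 4, and 220.0, 229 and 133 CPM in no-strain libraries 1 to 3. No-strain libraries lay below all TD libraries, and strain replicate 3 lay within the TD range: the log2 fold change from TD was -0.76 (SE 0.234, edgeR adjusted p = 0.0549) with strain and -1.09 (SE 0.261, edgeR adjusted p = 0.0177) without. Acly, whose enzyme splits citrate to acetyl-CoA, varied little among TD libraries, at 289.8, 300.3, 331, 300.2 and 291 CPM in TD libraries 1 to 5, 238, 248, 306 and 236 CPM in strain libraries 1 to 4, and 239, 243 and 209.6 CPM in no-strain libraries 1 to 3. Strain replicate 3 was the patch library inside the TD range: the log2 fold change from TD was -0.24 (SE 0.0877, edgeR adjusted p = 0.098) with strain and -0.39 (SE 0.0963, edgeR adjusted p = 0.0193) without.

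Me1 encodes malic enzyme 1, a source of NADPH for the synthase, and had 192, 145, 215, 213 and 138 CPM in TD libraries 1 to 5, 129, 102, 149 and 112 CPM in strain libraries 1 to 4, and 125, 134 and 79.5 CPM in no-strain libraries 1 to 3. No-strain libraries lay below the TD range and strain replicate 3 within it: the log2 fold change from TD was -0.56 (SE 0.189, edgeR adjusted p = 0.0763) with strain and -0.68 (SE 0.209, edgeR adjusted p = 0.0448) without. Thrsp, the Spot 14 protein of lipogenic tissue, fell without strain, with a log2 fold change of -1.50 (SE 0.452, edgeR adjusted p = 0.0415), and was -0.61 with strain (edgeR adjusted p = 0.329). Among the no-strain calls, that of Fasn was lost without no-strain replicate 3 (edgeR adjusted p up to 0.0701), and also with no filter on low counts. That of Acly was lost without no-strain replicate 1 or 3 (edgeR adjusted p up to 0.0871). The Me1 call was lost without TD replicate 1, 3 or 4 or strain replicate 1 or 4 or no-strain replicate 1 or 3 (edgeR adjusted p up to 0.159), and also with the title letter in the model, limma-voom, no filter on low counts or only the 2 groups in the fit. The Thrsp call was lost without TD replicate 1, 2, 3 or 4 or strain replicate 4 or no-strain replicate 1, 2 or 3 (edgeR adjusted p up to 0.12), and also with the title letter in the model, limma-voom, no filter on low counts or only the 2 groups in the fit. Strain calls were made without TD replicate 5 or strain replicate 3 or no-strain replicate 3 (edgeR adjusted p down to 0.0188) for Fasn, made without strain replicate 3 (edgeR adjusted p down to 0.0156) for Acly and made without no-strain replicate 3 (edgeR adjusted p down to 0.0461) for Me1. Acaca, the cytosolic form of acetyl-CoA carboxylase, had a mean of 47.6 ± 2.89 CPM under the film (SD, n = 5), 47.8 ± 5.56 CPM with strain (SD, n = 4) and 43.3 ± 8.01 CPM without (SD, n = 3) and did not pass (edgeR adjusted p = 0.978 and 0.458). Acacb, the mitochondria-bound form, had a mean of 145 ± 49.7 CPM under the film (SD, n = 5), 78.8 ± 52.1 CPM with strain (SD, n = 4) and 62.4 ± 21.6 CPM without (SD, n = 3) and did not pass either (edgeR adjusted p = 0.164 and 0.0791).

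Among the regulators, Mlxipl and Acvr1c fell under both patches and Srebf1 under no strain, while the genes of the adipocyte master factors Pparg and Cebpa passed in neither comparison. Mlxipl encodes ChREBP, which turns on lipogenesis when glucose is high. It had 15.4, 11.5, 19.7, 13.7 and 9.38 CPM in TD libraries 1 to 5, 5.42, 5.31, 7.32 and 4.22 CPM in strain libraries 1 to 4, and 4.41, 4.29 and 5.53 CPM in no-strain libraries 1 to 3. No patch library reached the TD range, and strain and no-strain libraries were intermixed: the log2 fold change from TD was -1.32 (SE 0.22, edgeR adjusted p = 0.00727) with strain and -1.55 (SE 0.248, edgeR adjusted p = 0.00369) without. Acvr1c encodes ALK7, an activin receptor of fat cells that restrains lipolysis, and had 10.5, 6.00, 11.5, 9.25 and 4.12 CPM in TD libraries 1 to 5, 4.07, 2.79, 3.70 and 2.25 CPM in strain libraries 1 to 4, and 0.990, 1.63 and 0.558 CPM in no-strain libraries 1 to 3. The 3 groups did not overlap: the log2 fold change from TD was -1.37 (SE 0.342, edgeR adjusted p = 0.0274) with strain and -2.95 (SE 0.428, edgeR adjusted p = 0.00272) without. The strain call of Acvr1c was lost without TD replicate 1, 3 or 4 or strain replicate 2 or 4 (edgeR adjusted p up to 0.0817), and also with the title letter in the model or limma-voom.

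Srebf1 encodes SREBP1, the insulin-responsive factor for lipogenic genes, and had 112, 118, 141, 120.5 and 118 CPM in TD libraries 1 to 5, 107, 104, 121 and 108 CPM in strain libraries 1 to 4, and 98.0, 111 and 91.7 CPM in no-strain libraries 1 to 3. No-strain libraries lay below the TD range by a small margin: the log2 fold change from TD was -0.15 (SE 0.0817, edgeR adjusted p = 0.253) with strain and -0.28 (SE 0.0896, edgeR adjusted p = 0.0487) without. That no-strain call was kept only without TD replicate 1, strain replicate 3 or no-strain replicate 2, and the highest edgeR adjusted p among the other 9 fits was 0.185. The call was also lost with the title letter in the model, DESeq2's size factors, limma-voom, no filter on low counts or only the 2 groups in the fit. Pparg had a mean of 25.6 ± 4.83 CPM under the film (SD, n = 5), 18.9 ± 6.14 CPM with strain (SD, n = 4) and 20.4 ± 4.70 CPM without (SD, n = 3) (edgeR adjusted p = 0.195 and 0.354). Cebpa had a mean of 213 ± 32.2 CPM under the film (SD, n = 5), 201 ± 27.0 CPM with strain (SD, n = 4) and 178 ± 26.9 CPM without (SD, n = 3) (edgeR adjusted p = 0.699 and 0.22). Pparg was called for strain without strain replicate 3 (log2 fold change -0.70, edgeR adjusted p = 0.0268).

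Car3 encodes carbonic anhydrase 3, a cytosolic enzyme that is very abundant in fat and in slow muscle fibres. It had 1042, 667, 1580.5, 1271 and 623 CPM in TD libraries 1 to 5, 428, 271, 248 and 181 CPM in strain libraries 1 to 4, and 152, 299.6 and 325 CPM in no-strain libraries 1 to 3. Every patch library lay below every TD library, and the patch groups overlapped: the log2 fold change from TD was -1.88 (SE 0.355, edgeR adjusted p = 0.0107) with strain and -2.001 (SE 0.399, edgeR adjusted p = 0.0085) without. Per kilobase of exon, to allow levels of different genes to be compared, Scd1 was the highest member in TD with 394 CPM per kb, followed by Car3 with 362 and Cd36 with 324. Adrb3 with 0.720 and Acvr1c with 0.890 CPM per kb were the lowest. The SD over the 5 TD libraries was 123, 142 and 75.7 CPM per kb for those 3 highest genes, so their order is within the spread.

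Library to library variation within the groups was shared by most members. TD replicate 3 was the highest TD library for 34 of 36 members and TD replicate 5 the lowest for 27. Strain replicate 3 was the highest strain library for 30 of 36. A handful of genes stood out in that library, and they were picked out after their values were seen. Elovl6, which lengthens palmitate, had 546, 323, 698, 458 and 393 CPM in TD libraries 1 to 5, 113, 182, 723 and 268 CPM in strain libraries 1 to 4, and 235, 391.6 and 93.3 CPM in no-strain libraries 1 to 3. Strain replicate 3 lay above all TD libraries for it, at 2.7 times the next strain library. Scd1, the delta-9 desaturase, had 2253, 1677, 2689, 1928 and 1086 CPM in TD libraries 1 to 5, 753, 737, 1927 and 934 CPM in strain libraries 1 to 4, and 865, 1135 and 488 CPM in no-strain libraries 1 to 3. In strain replicate 3 it was 2.06 times the next strain library, and within the TD range.

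Cidea, Acacb and Mgll showed the same order of patch libraries as Elovl6, with strain replicate 3 at 2.296, 2.25 and 2.06 times the next strain library. For these 4 genes, Dgat1 and Adrb3, strain libraries ranked 3, 4, 2 and 1 from the top and no-strain libraries 2, 1 and 3. A list of 9 sebaceous gland markers had the same order in both groups, and the skeletal muscle list had it among the strain libraries but ranked no-strain libraries 3, 1 and 2. The sebaceous mean was 3.95, 4.497, 6.02 and 4.88 log2 CPM in strain libraries 1 to 4, 4.91, 5.58 and 4.13 in no-strain libraries 1 to 3 and 5.35 to 6.11 in TD. The adipocyte marker list ranked strain libraries 3, 1, 2 and 4, with 4.02, 3.56, 4.06 and 3.47 log2 CPM in libraries 1 to 4. The part of sebaceous gland or muscle RNA in these members was not tested. Without strain replicate 3, Mgll, Acacb and Scd1 were called lower for strain against TD (log2 fold change -1.05, -1.45 and -1.26, edgeR adjusted p = 0.0443, 0.0183 and 0.0284), and Elovl6 and Cidea did not pass (edgeR adjusted p = 0.0662 and 0.0655). In the no-strain comparison, Scd1 had a log2 fold change of -1.22 and Elovl6 of -1.01, with edgeR adjusted p of 0.0571 and 0.258. Scd1 was called there without TD replicate 5 or strain replicate 3 and Acacb without strain replicate 3 (edgeR adjusted p down to 0.0265 and 0.0259). Both were also called there with DESeq2 or with only the 2 groups in the fit.

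**Figure D3:**
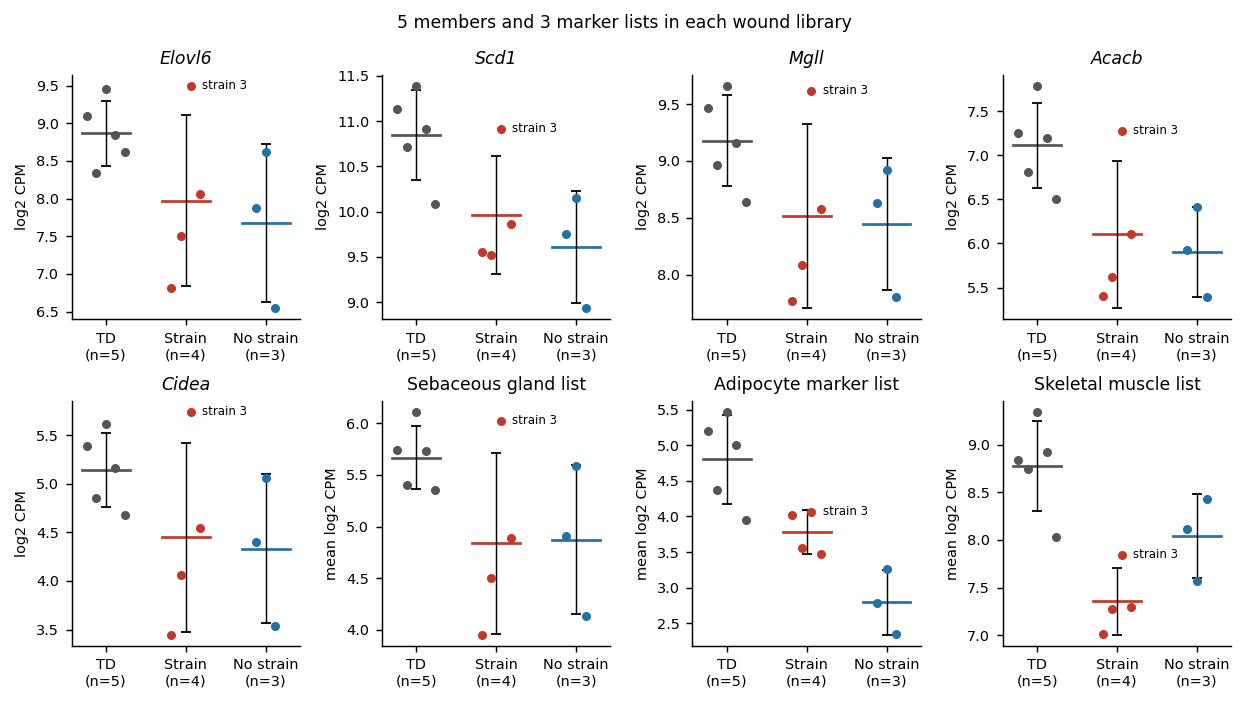
Log2 CPM (y axis, not starting at 0) of 5 members and the mean log2 CPM of 3 marker lists in each library, by group. Points are libraries, lines are group means and error bars are SD. Strain replicate 3 lies above the other strain libraries for the 5 members and the sebaceous gland list, and next to strain replicate 1 for the adipocyte list.

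Between strain and no strain, 0 of 36 members and 0% of all genes passed in the edgeR test, and 5 members (13.9%) had an unadjusted p under 0.05, against 5.61% of all genes. DESeq2 also called 0 members, and 28 genes of all those tested. The 5 were Cidec, Acvr1c, Plin1, Adrb3 and Gpd1, each higher under strain, with log2 fold changes of 1.36, 1.58, 1.057, 1.24 and 0.74 in that order. The lowest edgeR adjusted p of a member was 0.872. For 4 of them (11.1% of members, against 2.77% of all genes), Adrb3 being the exception, the 4 strain libraries lay wholly above the 3 no-strain libraries; 0 members lay wholly below, against 2.85%. Of the 36 members, 30 had a log2 fold change above 0 and 6 below (24 to 31 above when a library was left out, the fewest without strain replicate 3), with a median of 0.24 (all genes tested 0.01). The 9 adipocyte markers outside the set were all above 0 too, with a larger median of 1.02. Of these, 6 had an unadjusted p under 0.05 and 0 passed. The skeletal muscle list went the other way, with a median of -0.71 over 17 genes tested, and 16 of them lower under strain. The sebaceous gland list had a median of -0.06. Of the lipogenesis genes, Scd1, Elovl6 and Fasn had log2 fold changes of 0.39, 0.42 and 0.33 with standard errors of 0.404, 0.598 and 0.264.

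Adipocyte genes outside the set were lower under the patches too. Of 9, 5 fell with strain (2 to 7 when a library was left out, moving by over 1.5 times without TD replicate 1, 3 or 4 or strain replicate 1, 2 or 4) and 8 without (6 to 9), with medians of -0.98 and -2.33. The shares that fell were 55.6% and 88.9%, against 6.41% and 8.4% of all genes. Lep, which encodes the satiety hormone leptin whose receptor these mice lack in working form, had a mean of 235 ± 96.6 CPM under the film (SD, n = 5), 67.9 ± 20.7 CPM with strain (SD, n = 4) and 28.4 ± 8.61 CPM without (SD, n = 3), and the log2 fold change from TD was -1.79 (SE 0.352, edgeR adjusted p = 0.0122) with strain and -3.05 (SE 0.422, edgeR adjusted p = 0.00249) without. Slc7a10, an amino acid transporter of white adipocytes, fell in both comparisons, with log2 fold changes of -1.64 (SE 0.342, edgeR adjusted p = 0.0147) and -2.88 (SE 0.415, edgeR adjusted p = 0.00271). The summed level of the 9 genes was 228 to 715 CPM in TD, 143 to 229.6 CPM under strain and 83.8 to 128 CPM under no strain, and it was lowest in the no-strain libraries.

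Each member was also set against the mean log2 CPM of those 9 markers in the same library, as a description with no test. On this scale 0 means the same log2 difference from TD as the markers. Under strain 10 of 36 members were below 0, and under no strain 6 were. Cidec, Plin1 and Plin4 were among them in both comparisons, with differences from TD of -0.47 and -0.83 for Cidec, -0.25 and -0.30 for Plin1 and -0.48 and -0.28 for Plin4 (strain, then no strain). Acvr1c had -0.26 and -0.88 and Pnpla3 -0.35 and -0.11. Car3 had the lowest value for strain, -0.83, and 0.02 for no strain. Gpd1 counts as below 0 for no strain at -0.01. The SD over no-strain libraries was 0.777 for Car3 and 0.345 for Gpd1, so their side of 0 is within the spread. At the other end, Dgat1 had 1.03 and 2.23, Acaca 1.02 and 1.85, Cebpa 0.94 and 1.74 and Srebf1 0.88 and 1.72, the 4 highest values in the no-strain comparison. Fasn had 0.25 and 0.90 and Lpl 0.30 and 1.31. With Adipoq alone as the yardstick, 3 and 2 members were below 0. For strain these were Car3 (-0.42), Plin4 (-0.07) and Cidec (-0.06), and for no strain Acvr1c (-0.07) and Cidec (-0.02). On that yardstick the SD over no-strain libraries was 0.434 for Acvr1c and 0.757 for Cidec. Over TD libraries it was 0.174 for Plin4 and 0.2 for Cidec, so all of these but Car3 lie within the spread. Plin1 then had 0.16 and 0.50 and Pnpla3 0.06 and 0.69, so the values below 0 depended on the yardstick.

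**Figure D4:**
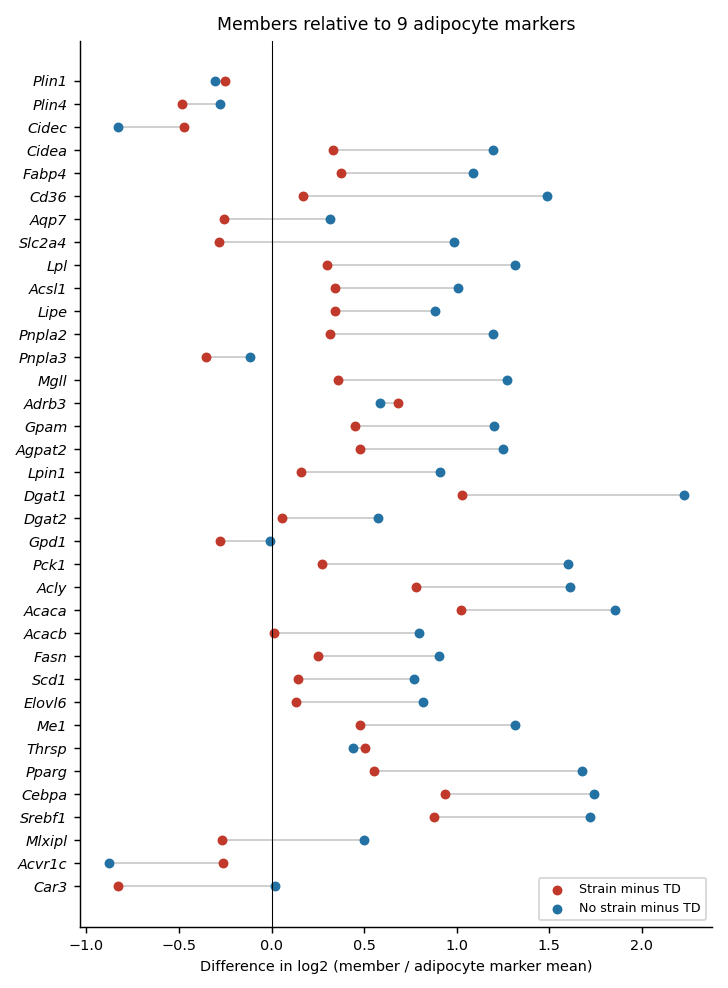
Difference from TD in the log2 ratio of each member to the mean of 9 adipocyte markers (x axis), for strain (red) and no strain (blue), with members on the y axis. Points left of 0, of which there are 10 for strain and 6 for no strain, are members lower relative to the markers than in TD; Dgat1 and Acaca lie farthest to the right in the no-strain comparison.

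Some genes of the pathway outside the set were called as well, unevenly between lists. In 8 lists of such fat genes together, 25 of 124 genes passed with strain and 33 without, where 12.6% and 17.8% of all genes did. Adipocyte markers gave 5 and 8 of 9, and fatty acid oxidation 8 and 7 of 19. Adipogenic transcription factors gave 0 and 1 of 12. Leaving out a library gave 8 (without strain replicate 2) to 33 and 14 (without no-strain replicate 3) to 40. Of 32 other triglyceride and droplet genes tested, 1 rose and 6 fell under strain and 2 rose and 6 fell under no strain (medians -0.14 and -0.17). For strain that is 3.12% higher and 18.8% lower, against 6.2% and 6.41% of all genes. For no strain it is 6.25% and 18.8%, against 9.35% and 8.4%. With a library left out, strain calls on the lower side numbered 2 to 6, moving by over 1.5 times without TD replicate 2, 3 or 4 or strain replicate 1 or 2. No-strain calls on the lower side numbered 2 to 8, moving by over 1.5 times without no-strain replicate 1 or 3. On the higher side, strain calls numbered 0 to 2, moving by over 1.5 times in each such fit but that without no-strain replicate 1. No-strain calls there numbered 1 to 4, moving by over 1.5 times without TD replicate 2, 3, 4 or 5 or strain replicate 1 or no-strain replicate 1 or 3. Cavin1, which shapes the caveolae of fat cells and vessels, fell in both, with log2 fold changes of -0.44 (SE 0.0979, edgeR adjusted p = 0.017) and -0.78 (SE 0.109, edgeR adjusted p = 0.00249), and the strain call was lost without strain replicate 2 (edgeR adjusted p up to 0.0517). Agpat4, an acyltransferase gene, fell in both, with log2 fold changes of -0.39 (SE 0.118, edgeR adjusted p = 0.0498) and -0.56 (SE 0.13, edgeR adjusted p = 0.0154). The strain call was kept only without strain replicate 4 (edgeR adjusted p up to 0.142 in the other fits that left out a library). The no-strain call was lost without no-strain replicate 1 or 3 (edgeR adjusted p up to 0.0661). Hilpda, a hypoxia-induced inhibitor of ATGL, rose without strain, with a log2 fold change of 0.88 (SE 0.16, edgeR adjusted p = 0.00582), and was 0.29 with strain (edgeR adjusted p = 0.222). Gk, which encodes glycerol kinase, rose without strain, with a log2 fold change of 1.58 (SE 0.441, edgeR adjusted p = 0.0316), a call lost without TD replicate 2, 3, 4 or 5 or no-strain replicate 1 or 3 (edgeR adjusted p up to 0.136), and also with the title letter in the model or no filter on low counts. The droplet coat genes of other cell types, Plin2 and Plin3, did not pass (-0.06 and 0.43 for Plin2, -0.01 and -0.05 for Plin3).

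Of 19 other lipogenesis genes, 2 rose and 1 fell under strain and 2 rose and 2 fell under no strain (medians -0.004 and 0.03). For strain that is 10.5% higher and 5.26% lower, against 6.2% and 6.41% of all genes. For no strain it is 10.5% and 10.5%, against 9.35% and 8.4%, so by calls alone the list was near the share of all genes. At an unadjusted p under 0.05 there were 7 of 19 with strain and 10 of 19 without, against 29.5% and 33.5% of all genes. With a library left out, strain calls on the lower side numbered 0 to 6, moving by over 1.5 times in each such fit but that without no-strain replicate 2 or 3. No-strain calls on the lower side numbered 0 to 5, moving by over 1.5 times without strain replicate 3 or no-strain replicate 1 or 3. On the higher side, strain calls numbered 0 to 2, moving by over 1.5 times in each such fit but that without TD replicate 5 or strain replicate 1. No-strain calls there numbered 1 to 2, moving by over 1.5 times without TD replicate 4 or no-strain replicate 1, 2 or 3. Pcx, which encodes pyruvate carboxylase, and Slc25a10, a mitochondrial dicarboxylate carrier, fell without strain, with log2 fold changes of -1.09 (SE 0.274, edgeR adjusted p = 0.021) and -0.70 (SE 0.162, edgeR adjusted p = 0.0151). Both calls were lost without no-strain replicate 1 or 3 (edgeR adjusted p up to 0.0865 and 0.0568). Pgd, an NADPH-making enzyme of the pentose phosphate pathway, rose in both comparisons, with log2 fold changes of 0.23 (SE 0.0663, edgeR adjusted p = 0.0412) and 0.34 (SE 0.0717, edgeR adjusted p = 0.00985), and so did Usf1, an E-box factor, with log2 fold changes of 0.22 (SE 0.061, edgeR adjusted p = 0.0356) and 0.25 (SE 0.0661, edgeR adjusted p = 0.0239). With strain, among the fits that left out a library, the Pgd call was kept only without TD replicate 5 or strain replicate 1 or 3 (edgeR adjusted p up to 0.133). The Usf1 call was kept only without TD replicate 5 or strain replicate 1 or no-strain replicate 3 (edgeR adjusted p up to 0.145), and the no-strain call of Usf1 was lost without TD replicate 4 or no-strain replicate 1, 2 or 3 (edgeR adjusted p up to 0.0877), and also with no filter on low counts or library totals as the only scaling. The gene that fell under strain was Scd3, a desaturase of sebaceous glands, with a log2 fold change of -2.71 (SE 0.801, edgeR adjusted p = 0.0476). It is named after its value was seen. Its call was kept only without strain replicate 3 or no-strain replicate 2 or 3 (edgeR adjusted p up to 0.125). Cholesterol synthesis, which the related factor SREBP2 controls, had 0 of 19 genes called under strain (1 at an unadjusted p under 0.05, against 29.5% of all genes).

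Fatty acid oxidation genes were lower as well, by smaller medians than the members. Of 19, 8 fell with strain (2 to 9 when a library was left out, moving by over 1.5 times without TD replicate 1, 3 or 4 or strain replicate 1, 2 or 4) and 7 without (2 to 10 when a library was left out, moving by over 1.5 times without TD replicate 1, 3 or 4 or strain replicate 1 or no-strain replicate 1, 2 or 3), with 0 higher, and the medians were -0.23 and -0.22. Decr1, an enzyme for unsaturated fatty acids, fell in both, with log2 fold changes of -0.58 (SE 0.119, edgeR adjusted p = 0.0137) and -0.69 (SE 0.131, edgeR adjusted p = 0.00683), as did Acadm, the medium-chain dehydrogenase, with log2 fold changes of -0.53 (SE 0.111, edgeR adjusted p = 0.0147) and -0.58 (SE 0.122, edgeR adjusted p = 0.0102). Of all genes, 6.41% fell with strain and 8.4% without, against 42.1% and 36.8% of this list. Muscle also uses this pathway, and its markers had medians of -1.44 with strain and -0.74 without. The part of muscle in the oxidation values was not tested. Among 7 thermogenic adipocyte genes, Cox7a1 fell, with log2 fold changes of -1.94 (SE 0.25, edgeR adjusted p = 0.0037) and -1.70 (SE 0.274, edgeR adjusted p = 0.00382). So did Cox8b, with log2 fold changes of -2.09 (SE 0.332, edgeR adjusted p = 0.00647) and -1.68 (SE 0.362, edgeR adjusted p = 0.0114). Both encode respiratory subunits that muscle also uses, and the part of muscle in their values was not tested. They are 28.6% of the thermogenic list. Ucp1, the defining gene of brown fat, was low, with a mean of 0.556 ± 0.745 CPM under the film (SD, n = 5), 1.73 ± 1.58 CPM with strain (SD, n = 4) and 1.29 ± 1.77 CPM without (SD, n = 3). Of 12 adipogenic transcription factors, 0 passed under strain (4 at an unadjusted p under 0.05) and Zfp423, a factor that commits cells to fat, fell without strain, with a log2 fold change of -0.59 (SE 0.182, edgeR adjusted p = 0.0449), a call kept only without strain replicate 2 or 4 (edgeR adjusted p up to 0.155). This call is 8.33% of the list, near the 8.4% of all genes that fell. At an unadjusted p under 0.05 there were 7 of 12 without strain, against 33.5% of all genes, with log2 fold changes in the list from -0.93 to 0.69. Of the 12 factors, 5 were above 0 without strain and 7 below. Of 7 preadipocyte genes, 0 passed under strain (2 at an unadjusted p under 0.05). Under no strain the list did not move in a single direction, with a median of 0.24 and 4 genes above 0 against 3 below. Its log2 fold changes ran from -1.36 to 0.91, and 4 of 7 had an unadjusted p under 0.05, against 33.5% of all genes. Dpp4 and Pi16 in it, markers of interstitial progenitors, fell, with log2 fold changes of -1.06 (SE 0.305, edgeR adjusted p = 0.0355) and -1.36 (SE 0.422, edgeR adjusted p = 0.0459). They are 28.6% of the list, against 8.4% of all genes that fell. The Dpp4 call was lost without TD replicate 1, 2 or 5 or no-strain replicate 1, 2 or 3 (edgeR adjusted p up to 0.0987), and also with no filter on low counts. The Pi16 call was lost without TD replicate 1, 2 or 5 or strain replicate 1 or 2 or no-strain replicate 1, 2 or 3 (edgeR adjusted p up to 0.134), and also with no filter on low counts or only the 2 groups in the fit.

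Markers of some other cells in the wound moved with the dressings as well. Of all genes tested, 6.2% rose and 6.41% fell for strain, and 9.35% rose and 8.4% fell for no strain. The 11 macrophage markers tested summed to 2387 to 5302 CPM in TD, 4554 to 7642 CPM under strain and 5057 to 7849 CPM under no strain. In the strain and no-strain comparisons 1 and 2 of them (9.09% and 18.2%) were called higher and 0 and 0 lower. With a library left out, the number higher for strain was 0 to 2, moving by over 1.5 times in each such fit but that without strain replicate 3 or no-strain replicate 1. For no strain it was 0 to 3, moving by over 1.5 times without TD replicate 1 or 4 or no-strain replicate 1 or 3. Lyz2 and Csf1r, the most abundant of them, did not pass (Lyz2 0.67 and 0.76, Csf1r 0.11 and 0.19). The 7 neutrophil markers tested summed to 446 to 1659.8 CPM in TD, 871 to 8698 CPM under strain and 2037 to 5169 CPM under no strain. In the strain and no-strain comparisons 6 and 5 of them (85.7% and 71.4%) were called higher and 0 and 0 lower. With a library left out, the number higher for strain was 1 to 6, moving by over 1.5 times without TD replicate 2, 3, 4 or 5 or strain replicate 1 or 2. For no strain it was 5 to 7. S100a9 and S100a8, the most abundant of these, had log2 fold changes of 2.62 (SE 0.745, edgeR adjusted p = 0.0418) and 2.65 (SE 0.762, edgeR adjusted p = 0.0437) with strain. The S100a9 call was kept only without TD replicate 1 or strain replicate 3 or 4 or no-strain replicate 2. The S100a8 call was kept only without TD replicate 1 or strain replicate 3 or 4. In the no-strain comparison neither gene passed. Of the 12 fits that left out a library, 4 gave a no-strain call for S100a9 and 3 for S100a8. The 10 endothelial markers tested summed to 514 to 641 CPM in TD, 641 to 919 CPM under strain and 709 to 823 CPM under no strain. In the strain and no-strain comparisons 6 and 6 of them (60% and 60%) were called higher and 0 and 0 lower. With a library left out, the number higher for strain was 4 to 6. For no strain it was 3 to 7, moving by over 1.5 times without no-strain replicate 3. Pecam1 and Cdh5, the vessel wall adhesion genes, rose in both comparisons. Pecam1 had log2 fold changes of 0.60 (SE 0.107, edgeR adjusted p = 0.0089) with strain and 0.61 (SE 0.115, edgeR adjusted p = 0.00668) without. Cdh5 had 0.46 (SE 0.109, edgeR adjusted p = 0.0222) and 0.66 (SE 0.117, edgeR adjusted p = 0.00517), and its strain call was lost without TD replicate 2 or 3 (edgeR adjusted p up to 0.0537), and also with the title letter in the model. Of the 17 skeletal muscle markers tested, 12 fell with strain (7 to 15 when a library was left out, moving by over 1.5 times without strain replicate 2) and 4 without (2 to 8 when a library was left out, moving by over 1.5 times without TD replicate 5 or no-strain replicate 2). These are 70.6% and 23.5% of the muscle markers. Acta1 had log2 fold changes of -1.44 and -0.53 and Myh1 of -1.30 and -0.69, of which Acta1 with strain passed (edgeR adjusted p = 0.0246), a call lost without TD replicate 3 or 4 or strain replicate 1, 2 or 4 (edgeR adjusted p up to 0.08), and also with the title letter in the model or no filter on low counts. The 9 keratinocyte and 7 fibroblast markers had 0 edgeR calls in either comparison (2 and 1 at an unadjusted p under 0.05 for strain, 1 and 0 for no strain). Of 9 sebaceous gland markers, Scd3 (11.1% of them) fell under strain and none passed under no strain (2 at an unadjusted p under 0.05). The part of these cell types in the members' values was not tested.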

How the data were processed

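RNA from 12 wounds was sequenced, and the authors deposited raw counts per gene as 1 file for each library (unit per the file headers). The submitters' processing notes name bcl2fastq 2.17, FastQC, cutadapt, STAR, featureCounts, DESeq2 and the GRCm38 build, without role or order. Annotation release, strand setting and treatment of multi-mapping reads are not given in the sources used here. The kit is taken not to mark strand, so antisense pairs cannot be separated, and genes with close copies (Scd1 and Scd3, Fabp4 and Fabp5) are uncertain.

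Symbols, exon lengths and overlaps came from GENCODE M21, where 54079 of 54232 identifiers matched. Genes passing filterByExpr in edgeR 4.0.16 (minimum count 10, total 15) were scaled by TMM and tested in a single robust quasi-likelihood fit of 12 libraries (R 4.3.3). Benjamini-Hochberg adjustment covered all 18618 genes tested, at a threshold of 0.05. Each SE is the log2 fold change divided by the square root of F. Log2 CPM used a prior count of 2. Groups follow the group label. The members and gene lists were chosen with earlier results of these data known.

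Library values are given for up to 3 members per role, those with the smallest p over the 3 groups. Each fat gene list outside the members names at most 2 risen and 2 fallen genes, ranked by p without strain, and each list of other cells names its 2 most abundant genes. Promoters are RefSeq's on GRCm38.p6.

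On simulated counts of 18618 genes the fit recovered 61% of genes changed by 1 on the log2 scale and 90% of those changed by 2 in the strain comparison with TD, 65% and 83% in the no-strain comparison, and 61% and 79% for strain against no strain. False calls were 6.21%, 1.33% and 2.1% of all calls. In each simulation 100 genes were changed by 1 and 100 by 2, and every gene was drawn independently. In these libraries most members varied together, so the rates may not hold for them. A count of 3 is at most 0.147 CPM, which covers counting error only. For 19 same-group pairs the chi-square statistic over its degrees of freedom was 9.11 to 71.9, so no pair within a group agreed within sampling noise. The alternatives were DESeq2's size factors, DESeq2 1.42.0 itself, limma-voom (limma 3.58.1) with quality weights, other filters, fits of 2 groups, 3 covariates and each library left out. Library totals as the only scaling were added after seeing the data. The no-strain result of the cholesterol synthesis list is not reported here.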

Additional observations from a re-analysis of the deposited data

Results flagged for a closer look

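Among 72 sets of member values (36 genes in the TD and strain groups), 5 had a library far from the others of its group by Dixon's test at the 95% level. Chance alone gives about 1 in 20, or 3.6 of 72. Fabp4 was at 9.57 log2 CPM in strain replicate 3, above the next strain library at 9.16. Gpam was at 5.48 log2 CPM in the same library, with the next at 5.00. Aqp7 was at 2.21 log2 CPM in strain replicate 4, below the next at 2.78. Acaca was at 5.81 log2 CPM in strain replicate 1, above the next at 5.52. Acly was at 8.37 log2 CPM in TD replicate 3, above the next at 8.23.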

How the results depend on the processing

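For strain against TD, the 15 calls became 23 with DESeq2, 8 with the title letter as a covariate and 0 with the muscle list or the adipocyte markers as one. Leaving out a library gave 8 to 25. Over all genes, 2349 calls became 1527 with no filter, 798 with the letter, 1 with muscle, 110 with the adipocyte markers, 1426, 1301 and 1274 without TD replicate 2, 3 and 4, and 882 without strain replicate 2. For no strain against TD, 25 became 15 with no filter, 6 with muscle and 0 with the adipocyte markers, and 12 to 27 with a library left out. Over all genes, 3305 calls became 2145 with the letter, 815 with muscle, 45 with the adipocyte markers, and 1668 and 1505 without no-strain replicate 1 and 3. The 25 companion genes called for strain became 13 with limma-voom, 14 with no filter, 8 with the letter and 0 with either tissue covariate (8 to 33 with a library left out). The 33 for no strain became 20 with no filter, 8 with muscle and 0 with the adipocyte markers (14 to 40 with a library left out). The other counts of these comparisons stayed within 1.5 times. Strain against no strain gave 0 members throughout, and 0 genes but for 28 with DESeq2. Members below 0 relative to the markers numbered 3 and 2 in place of 10 and 6 with Adipoq alone.

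With muscle as a covariate the strain log2 fold change turned to 0.006 for Lpl, 0.202 for Pnpla2 and 0.278 for Acta1. With the adipocyte markers as a covariate the no-strain value turned to 0.095 for Fabp4, 0.263 for Slc2a4, 0.327 for Acsl1, 0.197 for Lipe, 0.245 for Pnpla2, 0.114 for Adrb3, 0.144 for Gpam, 0.244 for Agpat2, 0.182 for Dgat2, 0.189 for Fasn, 0.432 for Me1, 0.598 for Thrsp, 0.024 for Srebf1, 0.532 for Pcx, 0.184 for Slc25a10 and 0.073 for Acadm. These 19 values had lost their call, and the cause was not tested. Both covariates differed by dressing, so these fits cannot tell covariate and dressing apart. Of the other values of named genes, 3707 kept sign and side of the threshold or were never called, 422 lost a call and 70 gained one.

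No paired analysis was possible because the title numbers all differ between libraries. Groups of 3 to 5 wounds limit the precision, at 20354677 or more counts per library.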
